A study of Mus musculus with 868 samples.

Results

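The 9 genes described here encode carriers that move organic ions, among them many drugs, across cell membranes: Slc22a2, Slc22a6, Slc22a8, Slc22a12, Slc47a1, Slco1a1, Slco1b2, Abcb1a and Abcc2. They were taken by symbol from 24421 gene symbols in each of 24 tissue tables, and every one was present in every table. The tables hold 3′ mRNA counts from 868 libraries of C57BL/6N mice, 15 drugs and 3 control groups, with 2 libraries per tissue and group except 4 for asenapine in brain and 4 for sofosbuvir in jejunum. The labels give no dose for most drugs, no sex or age, and do not say which libraries share an animal, so a p-value measures the spread between libraries, which may in part be technical.

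The groups are named as labelled. APAP, labelled with a time of 2 hours, and sofosbuvir form library set A with the untreated mice and the mice given 5% sucrose. Alendronate, risedronate, asenapine, lurasidone and olanzapine form set B, which holds no control group. Cisplatin, aripiprazole, clozapine, Dox (2 mg per mL), EMPA (2 weeks), lenalidomide, Repatha and teriparatide form set C with CMCTween, a vehicle of 0.5% carboxymethylcellulose and 0.25% Tween80. The sets rest on expression values and not on the labels, and levels are not compared between sets as drug effects. Below, untreated means mice with no treatment, and sucrose means the mice given it.

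As background, transport of organic ions through an epithelium takes a carrier on each face of the cell. In the kidney proximal tubule, Slc22a2 (the cation carrier OCT2), Slc22a6 (the anion carrier OAT1) and Slc22a8 (the anion carrier OAT3) take drugs up from blood. Slc47a1 (the proton and cation exchanger MATE1) and Abcc2 (the conjugate export pump MRP2) release them into urine, and Slc22a12 (the urate carrier URAT1) takes urate back from it. In liver, Slco1a1 and Slco1b2, members of the OATP family, take up bile acids and drugs from blood, while Abcc2 and Slc47a1 release them into bile. Abcb1a, one of a pair of mouse genes for the export pump P-glycoprotein, is known for its work in gut, in capillaries of the brain and in other barriers.

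Levels are CPM, a gene's count scaled to the library's column sum. A log2 fold change with its standard error and adjusted p comes from edgeR's quasi-likelihood test on all genes of a tissue, with Benjamini-Hochberg adjustment over all genes of the comparison, and a gene is called changed at an adjusted p below 0.05. Drugs of set A were compared with the mean of untreated and sucrose, drugs of set C with CMCTween, and drugs of set B with the other 4 drugs of that set, which are no control. The group labels name no vehicle for any drug, so whether CMCTween or sucrose matches the vehicle of a drug is not known here. A difference from these groups can therefore hold a part of vehicle or route, which cannot be told apart from the drug. Depth was between 451154 and 12811780 counts for a library, with a median of 877592, and the deepest libraries were untreated ones. The 15 proximal tubule markers summed to between 7023 and 43616 CPM in kidney libraries and to no more than 1985 CPM in any other tissue, and the 12 hepatocyte markers to between 40246 and 113922 CPM in liver libraries and to no more than 4686 CPM elsewhere. In intestine, CMCTween replicate 4 went against its labels: the ileal bile acid binding gene Fabp6 was at 1.75 CPM in the library labelled ileum and at 6184 CPM in the library labelled jejunum, while CMCTween replicate 3 had 5351 and 0 CPM. Intestinal results that use it are therefore also given without it.

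Start sites were examined because several of these genes moved together in kidney, and because regulators known to bind such sites were measured in the same libraries. RefSeq promoters (GRCm38.p6) were matched by symbol for 8 of the 9 genes, and the 250 bases before each start were searched on both strands. The HNF4 motif CAAAGTCCA had no match in the 8 windows, against 0.384% of the 32851 promoters of the same length. With so rare a motif, 8 windows are too few for its absence to tell anything, and no conclusion is drawn from it. TGACNNNGC, the core letters of the element bound by the oxidative stress factor encoded by Nfe2l2, was found once, in Abcc2, and 10.2% of all promoters hold it. The Abcc2 window (chr19:43782058-43782307, plus strand) is shown 5′ to 3′ on the strand of the gene because it holds the TGACNNNGC match, in lower case with the match in capitals.
Abcc2: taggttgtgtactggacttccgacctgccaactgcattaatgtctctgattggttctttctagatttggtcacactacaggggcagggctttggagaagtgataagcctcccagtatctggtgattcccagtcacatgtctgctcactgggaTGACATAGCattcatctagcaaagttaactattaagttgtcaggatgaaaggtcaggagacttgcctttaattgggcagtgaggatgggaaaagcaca
Counted from the base before the start as −1, the match lies at −98 to −90 of the RefSeq start. The GENCODE gene given below starts further upstream, so by that annotation the match lies inside the gene. A match is a description of letters, not a measured site.

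In untreated mice the 9 genes divided by organ. Kidney had the highest level of Slc22a2, Slc22a6, Slc22a8, Slc22a12 and Slc47a1, liver that of Slco1a1, Slco1b2 and Abcc2, and colon that of Abcb1a. The cation uptake gene Slc22a2 (chromosome 17:12584132-12628488, mm10) had 595.8 and 570.8 CPM in the kidney libraries, against 11.2 and 8.90 CPM in aorta, 2.28 and 5.56 CPM in white adipose tissue (labelled WAT) and less elsewhere. The anion uptake gene Slc22a6 (chromosome 19:8618039-8628299) had 761.6 and 865.6 CPM in kidney, and the only other tissue with a mean of at least 1 CPM was brain, at 4.06 and 3.61 CPM. Slc22a8 (chromosome 19:8591254-8611835) had 282.0 and 365.8 CPM in kidney, 9.44 and 8.05 CPM in eye and 4.51 and 5.29 CPM in brain, with no count in 12 tissues. These 3 tissues stood apart from each other in that order, and below them the libraries of pituitary and lung overlapped. The urate carrier gene Slc22a12 (chromosome 19:6535845-6543032, minus strand) was at 1998 and 2144 CPM in kidney, followed by testis at 5.01 and 5.28 CPM and lung at 1.42 and 4.73 CPM.

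The exporter gene Slc47a1 (chromosome 11:61343401-61378345, minus strand) was spread more widely. It had 761.8 and 758.6 CPM in kidney, 112.7 and 111.5 CPM in liver, 56.6 and 62.7 CPM in heart, 18.7 and 20.8 CPM in skull and 9.73 and 7.61 CPM in skeletal muscle, and the first 4 of these stood apart from each other and from skeletal muscle. Some count of it was present in all 24 tissues. Abcc2 (chromosome 19:43782192-43840740) had 138.2 and 162.4 CPM in liver, 107.4 and 110.6 CPM in kidney and 43.3 and 12.2 CPM in jejunum, which were apart, then 8.81 and 8.42 CPM in parotid gland and 9.31 and 4.52 CPM in ileum, which overlapped. Slco1a1 (chromosome 6:141907282-141946962, minus strand) had 231.2 and 210.8 CPM in liver and 122.6 and 101.9 CPM in kidney, with a mean under 1 CPM in every other tissue. Slco1b2 (chromosome 6:141629518-141686646) had 2442 and 2617 CPM in liver, and from adrenal gland (2.52 and 5.02 CPM) downward the libraries of neighbouring tissues in the order overlapped. Kidney held Slco1b2 at 0.45 and 0.23 CPM.

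Abcb1a (chromosome 5:8660077-8748575) followed another pattern. It had 389.7 and 379.0 CPM in colon, 122.9 and 84.5 CPM in ileum, 105.9 and 46.2 CPM in jejunum, 49.999 and 49.3 CPM in lung and 48.9 and 47.4 CPM in adrenal gland. Colon stood apart from ileum, ileum overlapped with jejunum and jejunum with lung. Its mean was at least 5 CPM in 16 tissues, but kidney had only 5.43 and 3.43 CPM and liver 1.51 and 1.38 CPM.

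Against the other 23 tissues of untreated mice, 7 of the 9 genes were higher in kidney (Slc22a2, Slc22a6, Slc22a8, Slc22a12, Slc47a1, Slco1a1 and Abcc2), where 27% of all 18298 genes tested were higher. The filter on low counts can be passed through the libraries of a single tissue. For genes near 0 elsewhere, the kidney and liver calls therefore restate the levels above and add no separate support. Abcb1a was lower in kidney (adjusted p = 0.000458; 18% of all genes were lower), and Slco1b2 was not called. In liver, Slco1a1, Slco1b2, Abcc2 and Slc47a1 were higher (25.4% of all genes), Abcb1a was lower (adjusted p = 1.049e-06; 22.1% of all genes), and the 4 Slc22a genes were not called. The standard error (log2) was 85.2 for Slc22a2, 13100 for Slc22a8 and 17387 for Slc22a12 in liver, and 19300 for Slco1b2 in kidney. With errors of that size these tests could not decide, and no conclusion is drawn from them. Between kidney and liver directly, Slc47a1 was higher in kidney by 2.19 ± 0.26 (log2, SE; adjusted p = 1.38e-08), Slco1a1 was lower in kidney by a log2 fold change of −1.56 ± 0.22 (adjusted p = 3.37e-07) and so was Abcc2, at −1.03 ± 0.32 (adjusted p = 0.0106). Among all genes, 22.8% were higher in kidney and 18.3% in liver. Abcb1a did not pass in this comparison (1.003 ± 0.54, adjusted p = 0.146).

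**Figure D1:**
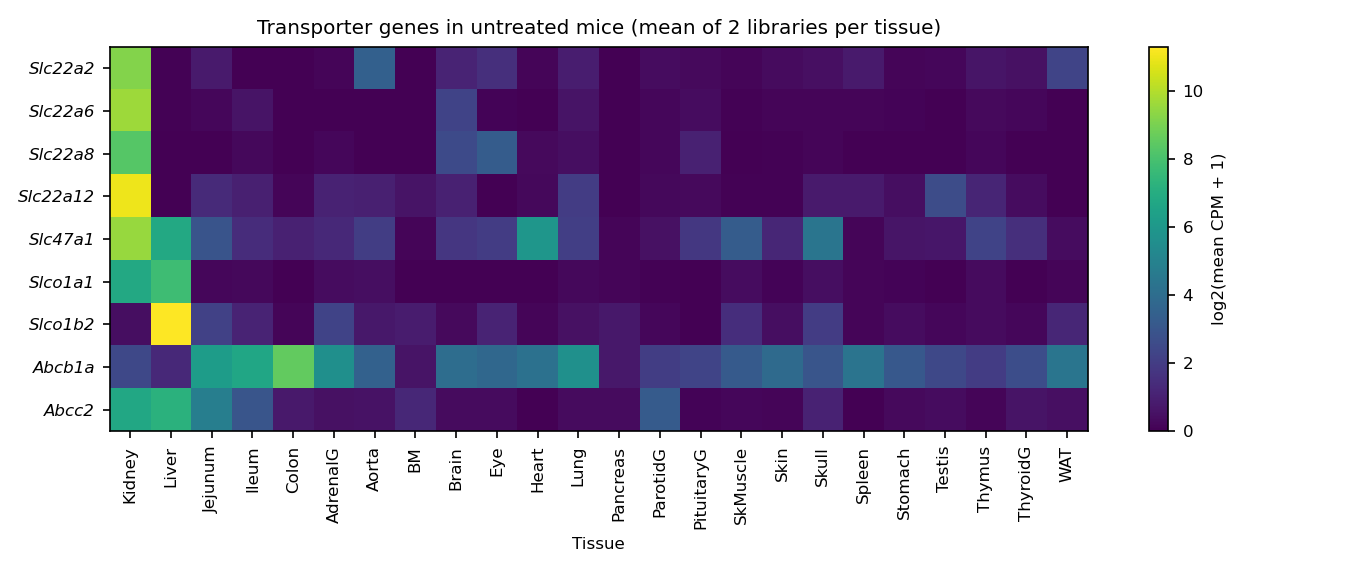
Levels of the 9 transporter genes in untreated mice, as log2(CPM + 1) of the mean of 2 libraries, with genes in rows and 24 tissues in columns. The 4 Slc22a genes fill the kidney column, Slco1b2 the liver column, and Abcb1a is highest in colon, at 389.7 and 379.0 CPM.

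The genes whose levels over the 24 untreated tissue means were most like each transporter were found by Pearson's r of log2(CPM + 1) among 13124 genes with a mean of at least 20 CPM in some tissue. These r values describe tissue means that share a library set and are given without a p. Slc22a6 was most like Emx1 (r = 0.991) and Umod (0.981), and Slc22a12 most like Serpina1f (0.974) and the sugar carrier gene Slc5a10 (0.966). For Slc22a8 the closest were Tmem72 (0.967) and Tmem27 (0.963), and for Slc22a2 AI314278 (0.936) and the amino acid transporter gene Slc7a13 (0.922). The liver pattern of Slco1b2 was closest to that of Plg (0.988), which encodes plasminogen, Kng1 (0.985) and Apoa5 (0.984). Slco1a1, with its pair of organs, was closest to Hgd (0.996), an enzyme of tyrosine breakdown, and Apom (0.993), while Abcc2 was closest to Smlr1 (0.945) and the glucose carrier gene Slc2a2 (0.903). Likeness was lower for Slc47a1, with AI317395 (0.865) and Amacr (0.845) closest, and for Abcb1a, with Maoa (0.844), a monoamine oxidase gene, and Batf2 (0.831). Among the 9 genes, Slc22a6 was most like Slc22a12 (0.942) and Slc22a8 (0.928), Slco1a1 was most like Abcc2 (0.828), and Abcb1a had a negative r with each of the other 8.

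In kidney the library sets differed in level for several of these genes, so drugs were read only inside a set. Slc22a12 ran from 1551 to 2285 CPM in set A, from 458 to 688 CPM in set B and from 405 to 688 CPM in set C without cisplatin. The order was the other way for Slc22a8, at 232 to 366 CPM in set A, 527 to 1175 CPM in set B and 466.2 to 708 CPM in set C without cisplatin, and for Abcc2, at 107 to 203, 285 to 413 and 269 to 478 CPM in the same sets. Slco1a1 ran from 71.0 to 530 CPM within set C without cisplatin. Over the 15 drugs, 8 of the 9 genes passed the filter on low counts in kidney and gave 120 gene and drug pairs, of which 3 rose and 8 fell, or 11 calls where 3.71% of all pairs of genes and drugs were called. A further look at unadjusted p below 0.05 found 27 of the 120. The share of all genes at that unadjusted p is not given for this or the later counts, so no excess is read from them. Without cisplatin 4 of 112 pairs were called (2 up, 2 down, against 2.32% of all pairs). Slco1b2 did not pass the filter in kidney, where it reached at most 12.6 CPM in any library.

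Cisplatin, a platinum drug known to enter proximal tubule cells through OCT2 and to injure them, gave 7 of the 11 kidney calls. Genes of uptake from blood, of urate reuptake and of export by MATE1 were all lower than in CMCTween kidneys, and Abcc2 was higher. Of the 8 genes tested, 6 fell and 1 rose, where 23% of all genes were called (11.7% down, 11.3% up). This split of all genes was 1152 up and 1189 down, and 1399 up and 957 down when libraries were scaled by their column sums alone. The median log2 fold change of the 8 genes was −1.51, beside 0.00069 over all genes.

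Slc22a2 had 486.7 and 549.3 CPM in cisplatin kidneys, against 956.5 and 998.1 CPM in CMCTween kidneys, a log2 fold change of −1.003 ± 0.12 (SE; adjusted p = 3.72e-11). For Slc22a6 the levels were 211.2 and 270.8 CPM with cisplatin, against 695.0 and 679.3 CPM, or −1.60 ± 0.13 (adjusted p = 1.95e-17). Both cisplatin libraries were below every other kidney library of set C for these genes, and the replicates of each group lay close together. Slc22a8 had 73.4 and 267.0 CPM with cisplatin, against 581.9 and 653.8 CPM with CMCTween, or −1.99 ± 0.31 (adjusted p = 6.88e-05). Here cisplatin replicate 1 was far lower than replicate 3, and the fold change was −1.29 without replicate 1 and −3.19 without replicate 3. In Slc22a12 the levels were 136.8 and 288.7 CPM, against 589.7 and 588.9 CPM, or −1.58 ± 0.21 (adjusted p = 6.64e-06), and −2.22 without cisplatin replicate 3. Again replicate 1 was the lower one, and neither cisplatin library reached the lowest CMCTween library.

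Slc47a1 had 232.3 and 371.8 CPM in cisplatin kidneys, against 726.0 and 802.2 CPM in CMCTween kidneys, or −1.44 ± 0.12 (adjusted p = 1.40e-16). Slco1a1 showed the most marked change of the 9 genes, at 8.04 and 25.6 CPM with cisplatin, against 279.3 and 260.8 CPM, or −4.17 ± 0.67 (adjusted p = 9.27e-05), with −3.48 without cisplatin replicate 1 and −5.16 without replicate 3. Cisplatin replicate 1 was thus the lower library for every member that fell: Slc22a2, Slc22a6, Slc22a8, Slc22a12, Slc47a1 and Slco1a1 alike. Abcc2, the apical conjugate pump, went the other way, with 468.6 CPM in cisplatin replicate 1 and 530.2 CPM in replicate 3, against 389.0 and 339.7 CPM, or 0.37 ± 0.12 (adjusted p = 0.0169). That call was lost without cisplatin replicate 3 (0.25, adjusted p = 0.223) and without CMCTween replicate 4 (0.30, adjusted p = 0.173). Abcb1a had 15.1 and 14.05 CPM, against 12.2 and 8.11 CPM, which did not pass (0.43 ± 0.49, adjusted p = 0.589).

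**Figure D2:**
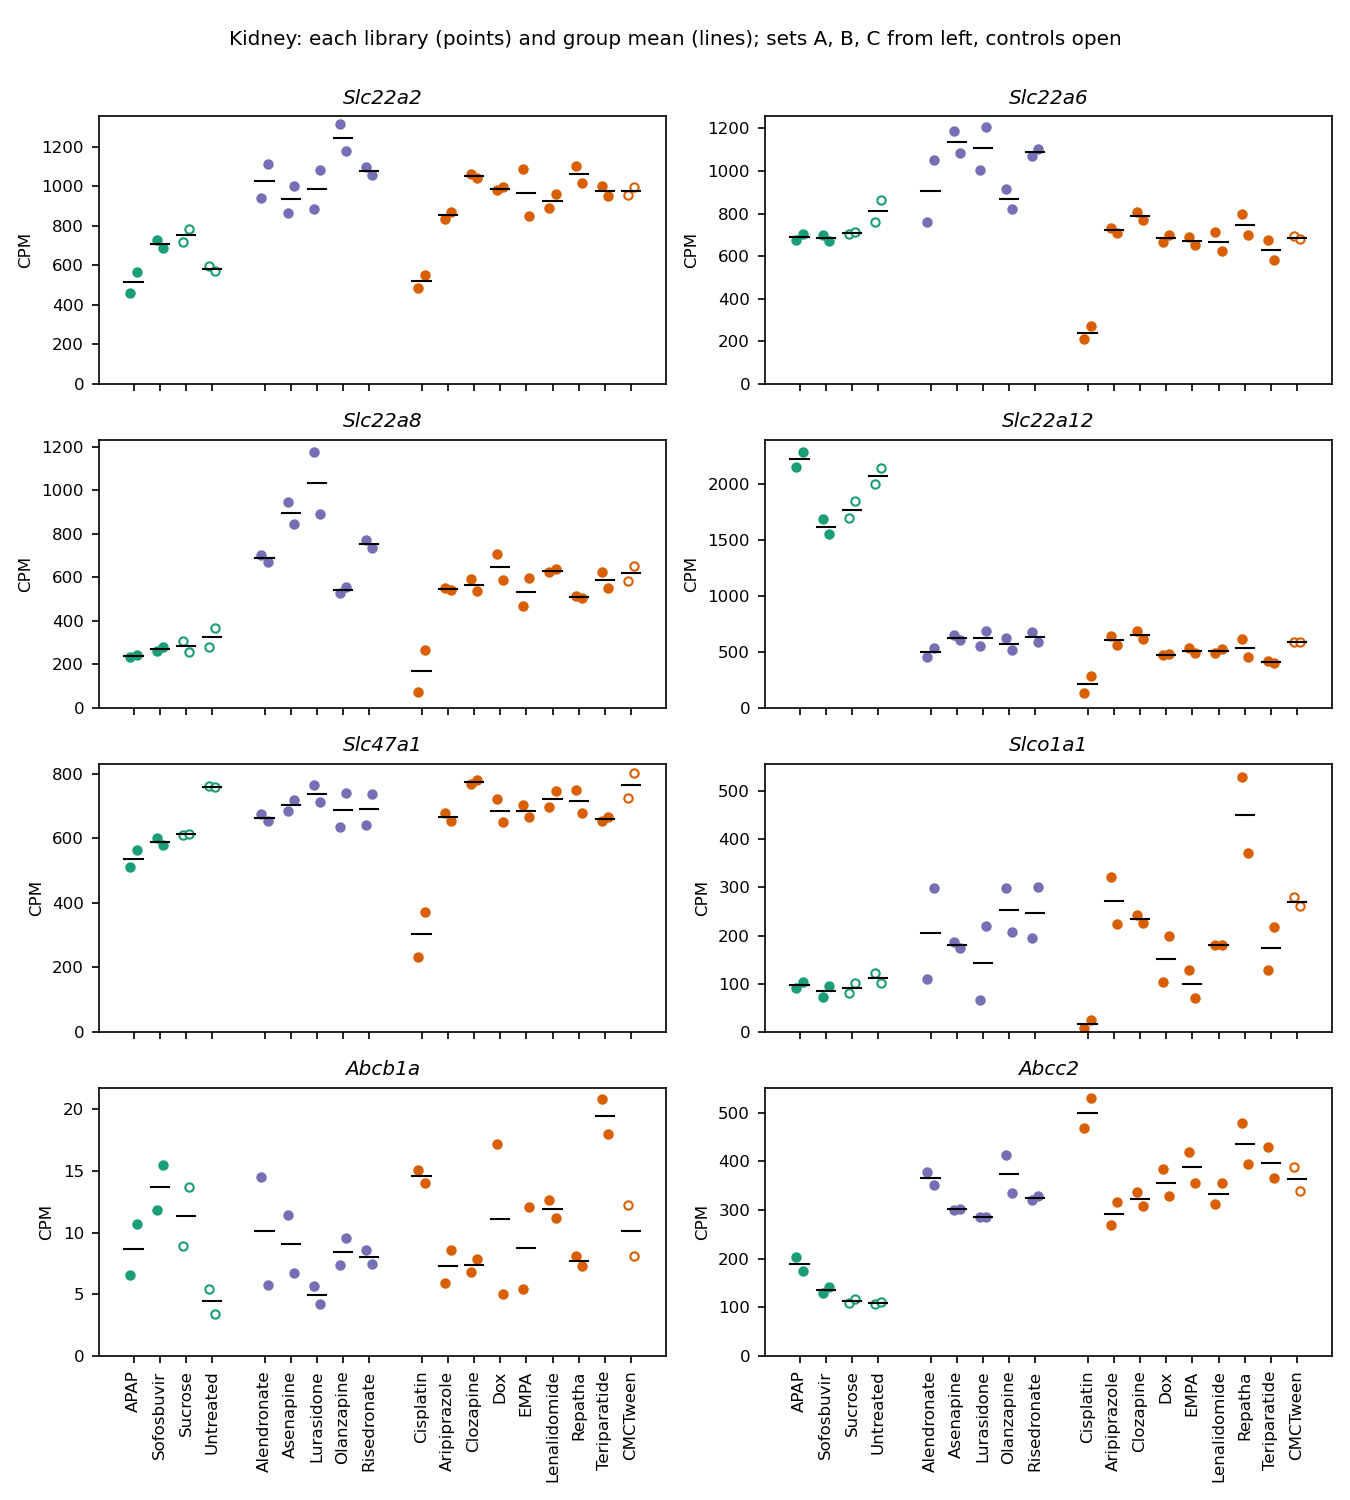
Levels of 8 of the transporter genes in every kidney library, in CPM on linear axes, by treatment, with library sets A, B and C from left to right; each point is 1 library, open points are control libraries and short lines are group means. Cisplatin libraries lie below both CMCTween libraries for 6 genes, with Slco1a1 at 8.04 and 25.6 CPM, and the sets differ in level for Slc22a12, Slc22a8 and Abcc2.

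Other proximal tubule genes were lower in the same cisplatin kidneys. All 14 of the tested proximal tubule markers fell (15 in the list, none at 0, median log2 fold change −1.54), and their sum was 7023 to 10811 CPM with cisplatin, against 35965 to 38795 CPM with CMCTween. Markers of other nephron segments fell in 4 of 10 cases, with sums of 1909 to 2342 CPM, against 2933 to 3368 CPM. All 8 kidney injury genes rose (median 4.94; 5763 to 8981 CPM, against 428 to 471 CPM), and all 4 tested cholangiocyte markers did as well (2798 to 4077 CPM, against 306 to 357 CPM), some of which injured tubules are known to express. Of 3 tested immune cell markers 1 rose and 1 fell, with sums of 90.7 to 114 CPM, against 78.8 to 111 CPM. In bulk tissue, fewer cells of a type and less RNA per cell cannot be told apart, and the part of these markers in the transporter values was not tested.

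Beyond the 9 genes, the transporter lists held 45 further genes, of which 29 were tested in kidney. With cisplatin 2 of them rose and 11 fell, and their median was −0.50. The other SLC22 genes had 8 of 14 tested lower and none higher (median −1.35), among them Slc22a28 (−4.29), Slc22a22 (−3.43), Slc22a30 (−2.74), Slc22a18 (−1.84), Slc22a19 (−1.58) and Slc22a7 (−1.66), which encodes the anion carrier OAT2. Among 6 other SLCO and MATE genes, the prostaglandin carrier gene Slco2a1 rose (1.87) while Slco1a6 (−1.66) and Slco3a1 (−0.56) fell. In the ABC list of 5 tested genes, Abcb1b, the near copy of Abcb1a, rose by 2.62 ± 0.39 (70.4 CPM with cisplatin on average, against 10.7 CPM; adjusted p = 7.37e-08), and Abcg2, an export pump of wide substrate range, fell by 0.33. The counting settings are not given in the sources used here, so reads of Abcb1a and Abcb1b, or of Slco1a1 and its relatives Slco1a4 and Slco1a6, may be split between the copies. None of the 4 bile acid and peptide transporter genes tested passed. Among 9 regulators of transporter genes tested, Nfe2l2 rose (1.16), and Hnf4a (−1.26), Rxra (−0.88) and Nr1h4 (−0.50) fell.

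APAP, a drug known for liver injury at high dose, gave 3 further kidney calls among 8 genes, where 14.4% of all genes were called. Slc22a2 had 459.7 and 567.4 CPM in APAP kidneys, against 719.8 and 784.3 CPM with sucrose and 595.8 and 570.8 CPM untreated, or −0.41 ± 0.10 (adjusted p = 0.00192). Slc47a1 had 509.6 and 564.5 CPM, against 610.9 and 615.0 CPM with sucrose and 761.8 and 758.6 CPM untreated, or −0.39 ± 0.10 (adjusted p = 0.00337). For both, the APAP libraries lay below all 4 control libraries, but the 2 control groups differed from each other in opposite order. The Slc22a2 call was lost against untreated alone (−0.29, adjusted p = 0.0517) and the Slc47a1 call against sucrose alone (−0.17, adjusted p = 0.492), and without APAP replicate 1 both were lost (−0.27, adjusted p = 0.235, and −0.32, adjusted p = 0.141). Abcc2 rose, with 202.5 and 173.6 CPM in APAP kidneys, against 108.9 and 116.2 CPM with sucrose and 107.4 and 110.6 CPM untreated, or 0.72 ± 0.12 (adjusted p = 1.57e-06), and this call held under all 14 alternatives run. Slc22a8 was at 232 to 243 CPM with APAP, against 257 to 366 CPM in the controls, and did not pass (−0.39 ± 0.26, adjusted p = 0.388).

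In the same APAP kidneys 6 of 14 proximal tubule markers fell (median −0.46; 26483 to 29075 CPM, against 33016 to 33944 CPM), and 2 of 8 injury genes rose, the cell cycle inhibitor gene Cdkn1a (4.39) and Sox9 (2.46). The part of these lists in the transporter values was not tested. Of the 29 other transporter genes tested 5 fell and none rose: Slc22a28 (−2.33), Slc22a22 (−0.997), Slc22a23 (−0.60), Slc22a18 (−0.38) and the bile acid exporter gene Slc51a (−1.53). Among regulators Cebpa (0.82), Nfe2l2 (0.67), Nr1h4 (0.54) and Ppara (0.35) rose.

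The remaining kidney call was Slc22a2 with olanzapine, an antipsychotic, where 7.79% of all genes were called. It had 1312 and 1175 CPM in olanzapine kidneys, against 864 to 1111 CPM in the 8 libraries of the other set B drugs, or 0.33 ± 0.09 (adjusted p = 0.00967), a call lost without olanzapine replicate 1 (0.24, adjusted p = 0.342). The olanzapine libraries were the 2 highest of the set for this gene. The anion carrier gene Slc22a8 was lower in value in the same kidneys without a call, at 527 and 556 CPM, against 669 to 1175 CPM (−0.59 ± 0.24, adjusted p = 0.148). Slc22a6, at 824 to 913 CPM, overlapped with the other set B libraries (762 to 1209 CPM). The other 12 drugs had no call among 96 pairs by edgeR, of which 13 had an unadjusted p below 0.05, nor among the 90 of them to which DESeq2 gave an adjusted p. With EMPA, Slco1a1 was at 129.2 and 71.0 CPM, against 279.3 and 260.8 CPM with CMCTween, which did not overlap but did not pass (−1.50 ± 0.46, adjusted p = 0.363), and with Repatha it was at 530 and 370 CPM (0.83 ± 0.41, adjusted p = 0.720). Teriparatide kidneys had 405 and 419 CPM of Slc22a12, against 589 and 590 CPM with CMCTween (−0.52 ± 0.20, adjusted p = 0.409). Sofosbuvir kidneys had 579 and 600 CPM of Slc47a1, against 611 to 762 CPM in untreated and sucrose kidneys (−0.29 ± 0.10, adjusted p = 0.112).

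**Figure D3:**
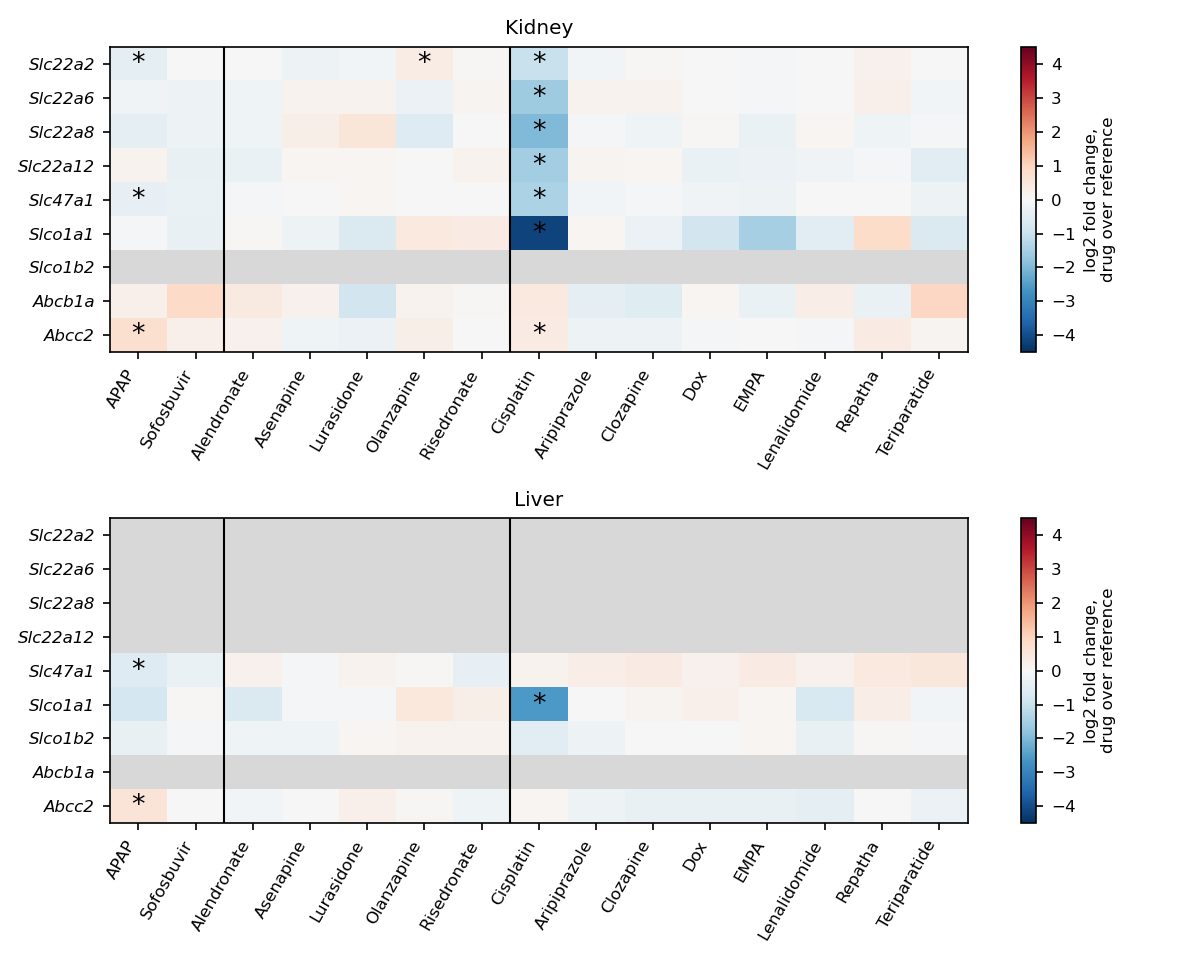
Log2 fold changes of the transporter genes with each of 15 drugs in kidney and liver, against the reference of the library set; asterisks mark calls at an adjusted p below 0.05 and grey cells were not tested. The cisplatin column in kidney holds 6 falls and 1 rise, and the liver panel holds 3 calls.

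In liver only 4 of the 9 genes could be tested, Slc47a1, Slco1a1, Slco1b2 and Abcc2. Of 60 gene and drug pairs 1 rose and 2 fell, where 2.47% of all pairs were called, and 12 had an unadjusted p below 0.05. The 4 Slc22a genes were near 0 in liver, with no library above 2.73 CPM, and Abcb1a reached at most 7.29 CPM.

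With cisplatin, Slco1a1 fell in liver as it did in kidney. It had 41.0 and 87.1 CPM in cisplatin livers, against 465.1 and 370.9 CPM in CMCTween livers, or −2.60 ± 0.50 (adjusted p = 0.00168), where 9.96% of all genes were called (4.57% down). Among all genes 444 rose and 377 fell, and 345 rose and 465 fell when scaled by column sums alone. Both libraries were the lowest of all 18 liver libraries of set C, and the fold change was −3.22 without cisplatin replicate 3. The other uptake gene, Slco1b2, was at 2027 and 2624 CPM, against 3813 and 3220 CPM, which did not overlap but did not pass (−0.51 ± 0.22, adjusted p = 0.164). Slc47a1 was at 80.5 and 113.4 CPM in cisplatin livers, against 86.8 and 96.98 CPM, so the groups overlapped (0.17). Hepatocyte markers summed to 90411 to 113719 CPM with cisplatin, against 87272 to 88056 CPM, with 3 of 11 higher and 2 lower. Of 16 other transporter genes tested 3 fell and none rose, among them the bile salt export pump gene Abcb11 (−1.29) and Slc22a30 (−1.12).

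In APAP livers Slc47a1 fell and Abcc2 rose, as in kidney, where 16.5% of all genes were called. Slc47a1 had 84.8 and 55.6 CPM with APAP, against 103.9 and 100.5 CPM with sucrose and 112.7 and 111.5 CPM untreated, or −0.57 ± 0.18 (adjusted p = 0.0210). The APAP libraries lay below all 4 controls, and without APAP replicate 2 the call was lost (−0.34, adjusted p = 0.390). Abcc2 had 270.5 and 306.3 CPM, against 236.9 and 294.2 CPM with sucrose and 138.2 and 162.4 CPM untreated, or 0.56 ± 0.12 (adjusted p = 0.000652). APAP and sucrose libraries overlapped for this gene, and against sucrose alone neither gene was called (Slc47a1 −0.45, adjusted p = 0.203; Abcc2 0.21, adjusted p = 0.477); the Abcc2 call was also lost without APAP replicate 2 (0.43, adjusted p = 0.0736) and the Slc47a1 call with DESeq2 (adjusted p = 0.0580). Slco1a1 was at 147.0 and 155.4 CPM with APAP, against 328.1 and 319.3 CPM with sucrose and 231.2 and 210.8 CPM untreated, a difference that did not pass (−0.79 ± 0.39, adjusted p = 0.199). Hepatocyte markers summed to 40246 to 41904 CPM, against 42920 to 48298 CPM, with 1 of 11 higher and 3 lower, and their part in these values was not tested. Of 16 other transporter genes 2 rose, the carnitine carrier gene Slc22a5 (2.55) and the phospholipid pump gene Abcb4 (1.26), and 5 fell, among them Slc22a28 (−3.01), Slco2b1 (−0.80), Abcb11 (−0.78) and Slc22a23 (−0.60). Among regulators Hnf4a rose (0.59) and Ahr (−1.36), Foxa2 (−1.046) and Rxra (−0.55) fell.

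The other 13 drugs had no liver call by edgeR among 52 pairs, of which 8 had an unadjusted p below 0.05, nor among the 50 of them to which DESeq2 gave an adjusted p. In CPM, both Abcc2 libraries of each of the 7 set C drugs other than cisplatin (342 to 495 CPM) were below both CMCTween libraries (497.7 and 562.5 CPM). Their log2 fold changes ran from −0.44 for lenalidomide to 0.01 for Repatha, with adjusted p from 0.278 to 0.994. These comparisons share the same CMCTween libraries. Single libraries stood out for Slco1a1 in liver, with 112 CPM in lenalidomide replicate 4 and 134 CPM in alendronate replicate 1.

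The difference between the kidney and the liver response was tested in 1 fit of both tissues. Of 45 pairs of the 3 genes tested in both organs (Slc47a1, Slco1a1 and Abcc2) 1 was called, and 7 had an unadjusted p below 0.05. The call was Slc47a1 with cisplatin, which differed by −1.60 ± 0.24 (kidney minus liver, log2, adjusted p = 7.10e-07), with −1.44 in kidney and 0.17 in liver. Over all genes, 7.06% differed between the organs with cisplatin and 0.774% over all drugs. Slco1a1, lower in both organs with cisplatin, differed by −1.56 ± 0.92 (adjusted p = 0.372), so a difference of its response between the organs was not shown.

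Outside kidney and liver, 6 of the 9 genes passed the filter somewhere. Abcb1a was tested in 17 tissues, Slc47a1 and Slco1b2 in 5 each, Abcc2 in 3, and Slc22a2 and Slc22a8 in 2 each, while Slc22a6, Slc22a12 and Slco1a1 were tested in none. Of 510 pairs 13 rose and 5 fell, or 18 calls in 9 tissues, where 2.82% of all pairs were called, and 73 had an unadjusted p below 0.05. Abcb1a made 8 of the calls, all rises, Abcc2 7 and Slc47a1 3.

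In small intestine, Slc47a1 rose with APAP in both segments, Abcb1a in ileum and Abcc2 in jejunum, while ileal Abcc2 and jejunal Abcb1a were tested and not called. All but the ileal Slc47a1 call were lost against sucrose alone. Slc47a1 had 28.9 and 37.4 CPM in APAP ileum, against 5.67 and 11.2 CPM with sucrose and 2.095 and 1.39 CPM untreated, or 3.15 ± 0.47 (adjusted p = 2.38e-06), where 16.2% of all genes were called. Against sucrose alone the value was 2.04 (adjusted p = 0.0298) and against untreated alone 4.26. In jejunum, where 21.5% of all genes were called, it had 105.8 and 77.3 CPM with APAP, against 25.2 and 9.89 CPM with sucrose and 12.5 and 0.94 CPM untreated, or 3.18 ± 0.72 (adjusted p = 0.00400). This call was lost against sucrose alone (2.47, adjusted p = 0.0988), without APAP replicate 1 (2.97, adjusted p = 0.0565) and with libraries of the set only (adjusted p = 0.0744), and the value was 4.56 without untreated replicate 2. Jejunal Abcc2 had 286.1 and 275.7 CPM with APAP, against 157.5 and 96.2 CPM with sucrose and 43.3 and 12.2 CPM untreated, or 2.37 ± 0.50 (adjusted p = 0.00240), a call lost against sucrose alone (1.25, adjusted p = 0.212), and 2.99 without untreated replicate 2. Ileal Abcb1a had 488.7 and 612.8 CPM with APAP, against 428.4 and 421.3 CPM with sucrose and 122.9 and 84.5 CPM untreated, or 1.496 ± 0.46 (adjusted p = 0.0328). In each of these the APAP libraries were above all 4 control libraries, and the untreated mean was below the sucrose mean.

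That ileal Abcb1a call was lost against sucrose alone (0.45, adjusted p = 0.733) and without any 1 of APAP replicate 1 (adjusted p = 0.101), APAP replicate 2 (0.217), sucrose replicate 1 (0.0706), sucrose replicate 2 (0.0847) or untreated replicate 4 (0.0971). Sums of enterocyte markers were higher with APAP in both segments, while the calls of single markers differed between them. In APAP ileum 9 of 9 markers rose, with sums of 4844 to 7075 CPM, against 544 to 3630 CPM, and in APAP jejunum 1 of 9 rose, with sums of 14271 to 16019 CPM, against 461 to 8951 CPM. Their part in the transporter values was not tested.

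**Figure D4:**
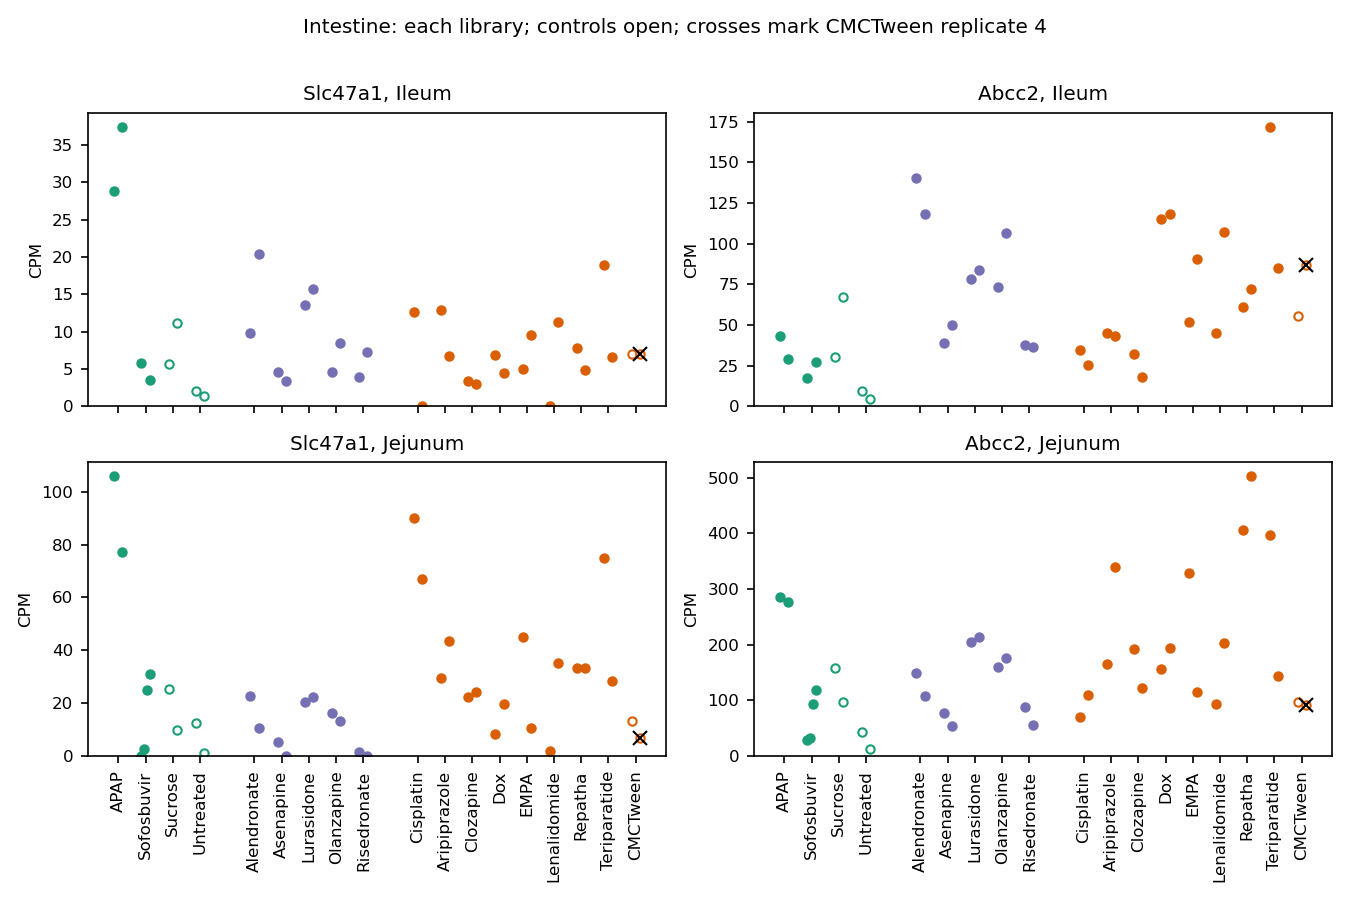
Levels of Slc47a1 and Abcc2 in every ileum and jejunum library, in CPM on linear axes, by treatment; points are libraries, open points are control libraries, and crosses mark CMCTween replicate 4. APAP libraries of Slc47a1 lie above the sucrose and untreated libraries in both segments, at 28.9 and 37.4 CPM in ileum and 105.8 and 77.3 CPM in jejunum.

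Abcc2 also changed in ileum with 2 drugs. It had 34.5 and 25.7 CPM in cisplatin ileum, against 55.8 and 86.9 CPM with CMCTween, or −1.34 ± 0.49 (adjusted p = 0.0450), where 29.2% of all genes were called. In these cisplatin libraries Fabp6 was at 15.7 and 16.3 CPM, against 3226 to 35365 CPM in all ileum libraries other than those of cisplatin and CMCTween, while the ileal bile acid carrier gene Slc10a2 was at 97.9 and 99.7 CPM. Without CMCTween replicate 4 the call was lost (−1.11, adjusted p = 0.225), as it was without any other 1 of the 4 libraries (adjusted p = 0.0565 to 0.245) and under other scalings (0.0536 and 0.0544). With risedronate, a bone drug of the bisphosphonate class, it had 38.0 and 36.6 CPM, against 38.9 to 140 CPM in the other set B libraries, or −1.17 (adjusted p = 0.0446), where 9.97% of all genes were called; 9 of the 10 libraries left out in turn ended that call, as did scaling by column sums alone (0.0540). Between the labelled segments, CMCTween replicate 4 had 95.6 CPM of Abcb1a in ileum, against 457.2 CPM in replicate 3, and 790.1 CPM in jejunum, against 122.9 CPM in replicate 3. Without it, none of 24 set C pairs in ileum and none of 24 in jejunum were called, and 5 and 7 of them changed sign. In jejunum Slc47a1 was at 90.2 and 66.9 CPM with cisplatin, against 13.4 and 6.84 CPM with CMCTween, which did not pass (2.94 ± 1.048, adjusted p = 0.109). The value was 2.56 without CMCTween replicate 4.

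Abcb1a was higher with APAP in 5 of the 17 tissues, lower in none, and had a log2 fold change above 0 in 14. In the tissues that tested Abcb1a, kidney among them, 5.37% of all genes rose with APAP. Its median over the 17 was 0.53, beside −0.02 for all genes. Beside ileum, described above, the tissues were skeletal muscle, heart, white adipose tissue and lung. Skeletal muscle had 20.4 and 23.2 CPM with APAP, against 8.45 and 7.45 CPM with sucrose and 9.63 and 6.57 CPM untreated, or 1.24 ± 0.31 (adjusted p = 0.00115; 28.3% of all genes called), which held under all 14 alternatives run. In heart it had 32.2 and 44.2 CPM, against 13.7 and 26.6 CPM with sucrose and 17.1 and 17.98 CPM untreated, or 1.051 ± 0.24 (adjusted p = 0.000866; 11.2% of all genes), a call lost without APAP replicate 2 (0.82, adjusted p = 0.137). In all 5 tissues the APAP libraries were above the 4 control libraries.

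White adipose tissue had 66.4 and 49.3 CPM of Abcb1a with APAP, against 25.4 and 18.8 CPM with sucrose and 23.7 and 17.0 CPM untreated, or 1.46 ± 0.32 (adjusted p = 0.00181; 16.4% of all genes). The call was lost without APAP replicate 1 (1.15, adjusted p = 0.0795) and with column sums alone (adjusted p = 0.0586). Lung had 83.0 and 84.8 CPM, against 60.9 and 52.3 CPM with sucrose and 49.999 and 49.3 CPM untreated, or 0.61 ± 0.17 (adjusted p = 0.0179; 7.62% of all genes). That call was lost against sucrose alone (0.55, adjusted p = 0.211), without APAP replicate 1 (0.153), APAP replicate 2 (0.175) or sucrose replicate 2 (0.0784), and with DESeq2 (0.0815). Kidney Abcb1a was not called (0.23).

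Endothelial markers, measured since Abcb1a is known in capillaries, differed between these tissues. Their sums with APAP were 739 to 767 CPM in heart, against 734 to 864 CPM in controls, and 2801 to 2813 CPM in lung, against 2921 to 3354 CPM, so they were not raised there. Skeletal muscle had 307 to 351 CPM, against 216 to 258 CPM, with 2 of 6 tested markers higher and 1 lower, and white adipose tissue 1155 to 1387 CPM, against 803 to 991 CPM, with 2 of 7 higher. The near copy Abcb1b rose with APAP in white adipose tissue (71.1 to 73.4 CPM, against 14.1 to 21.5 CPM; 2.103, adjusted p = 7.68e-07) and skeletal muscle (1.09, adjusted p = 0.0126), and was not called in heart, lung or ileum.

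**Figure D5:**
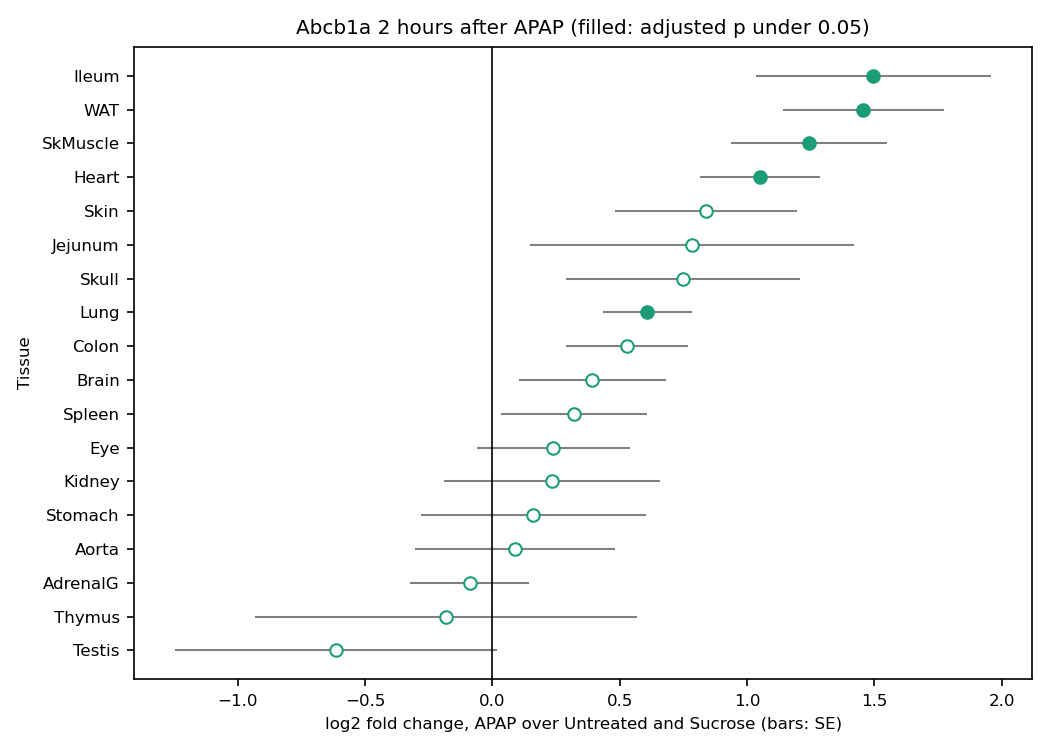
Log2 fold changes of Abcb1a with APAP, over the mean of sucrose and untreated, in the 17 tissues that tested it outside kidney and liver and in kidney, with bars for the standard error. Filled points mark an adjusted p below 0.05, in ileum (1.496), white adipose tissue (1.46), skeletal muscle (1.24), heart (1.051) and lung (0.61).

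Cisplatin raised Abcb1a in 2 of the 17 tissues, where 6.38% of all genes in the tissues that tested it rose. White adipose tissue had 105.2 and 85.2 CPM with cisplatin, against 37.4 and 18.002 CPM with CMCTween, or 1.72 ± 0.36 (adjusted p = 0.00256; 9.05% of all genes called). The call was lost without cisplatin replicate 1 (1.54, adjusted p = 0.0721), without CMCTween replicate 4 (1.30, adjusted p = 0.0883) and with column sums alone (adjusted p = 0.0823), and the value was 2.37 without CMCTween replicate 3. Abcb1b rose there as well (77.2 to 80.9 CPM, against 21.4 to 33.2 CPM; 1.48, adjusted p = 0.00167), and 5 of 7 endothelial markers rose, with sums of 1077 to 1371 CPM, against 525 to 591 CPM. Thymus had 13.4 and 29.3 CPM, against 4.84 and 5.24 CPM, or 1.996 ± 0.66 (adjusted p = 0.0104), where 43.8% of all genes were called. That call was lost without cisplatin replicate 3 (1.21, adjusted p = 0.273), without CMCTween replicate 3 (1.82, adjusted p = 0.125) and with DESeq2 (adjusted p = 0.104), and 5 of 6 tested endothelial markers rose in the same libraries (209 to 273 CPM, against 105 to 112 CPM). The part of endothelial markers in the Abcb1a values was not tested. Testis had 24.9 and 6.60 CPM of Abcb1a with olanzapine, against 3.21 to 12.3 CPM with the other set B drugs, or 1.41 (adjusted p = 0.0424; 3.27% of all genes called), and 0.19 (adjusted p = 0.964) without olanzapine replicate 1, so 1 library set that value. The testis call was lost in 8 of 15 alternatives run, with adjusted p of 0.0571 to 0.0798 in those that kept olanzapine replicate 1.

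Parotid gland, a salivary gland, had 4 calls for Abcc2 among 15 drugs. Dox libraries had no count, against 21.9 and 29.2 CPM (52 counts) with CMCTween, which made Dox at least 18.1-fold lower against a floor of 3 counts over the group (adjusted p = 2.28e-07; 3.3% of all genes called). Asenapine libraries had 1 count in all (0.92 and 0 CPM), against 7.93 to 33.6 CPM with the other set B drugs, a ratio of 0.0232 with a 95% counting interval from 0.000584 to 0.131 (adjusted p = 1.25e-07; 9.53% of all genes). Sofosbuvir libraries also had 1 count in all, but so near 0 were the sucrose libraries, at 1.06 and 0.76 CPM, that the control groups of set A differed, with 8.81 and 8.42 CPM untreated. APAP parotid had 11.5 and 11.2 CPM, or 2.30 ± 0.54 against both controls (adjusted p = 0.00300; 7.58% of all genes), but 0.55 (adjusted p = 0.442) against untreated alone, 4.05 against sucrose alone, and no call without APAP replicate 2 (2.28, adjusted p = 0.0737). Risedronate had 27.7 and 33.6 CPM, against 0 to 30.6 CPM with the other set B drugs, or 2.12 ± 0.37 (adjusted p = 0.00347; 0.194% of all genes), with no call without risedronate replicate 2 (2.005, adjusted p = 0.200) and a value of 2.83 without asenapine replicate 3, and the libraries it was compared with include those of asenapine at 0.92 and 0 CPM. Abcc2 levels in the other groups of set C ran from 10.3 to 32.8 CPM. Bhlha15, measured in the same parotid libraries, was at 57.5 and 76.6 CPM with Dox, against 130.4 and 137.6 CPM with CMCTween. With asenapine it was at 50.6 and 74.4 CPM, against 92.5 to 139.5 CPM with the other set B drugs. Amy1, measured in these libraries as well, went the other way, at 35073 and 38856 CPM with Dox, against 23422 and 25675 CPM with CMCTween. Asenapine libraries had 41371 and 50871 CPM of Amy1, against 22153 to 35657 CPM with the other set B drugs. APAP libraries had 49.9 and 65.4 CPM of Bhlha15, sucrose libraries 51.8 and 58.7 CPM and untreated libraries 104.7 and 102.9 CPM, so the controls differed here too. The part of cell make-up in the Abcc2 values was not tested.

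The last call was a fall of Slc47a1 in skeletal muscle with cisplatin, at 13.8 and 11.98 CPM, against 26.4 and 20.4 CPM with CMCTween, or −0.93 (adjusted p = 0.0486; 36.7% of all genes called), which held in only 1 of 11 alternatives run, with adjusted p up to 0.462. Slco1b2 made no call outside liver by edgeR among 75 pairs, of which 5 had an unadjusted p below 0.05, and none among the 19 to which DESeq2 gave an adjusted p. In adrenal gland it was at 82.5 and 14.6 CPM with aripiprazole and at 73.0 and 16.0 CPM with clozapine, against 0 CPM in both CMCTween libraries, with adjusted p of 0.0657 and 0.0583. The hepatocyte gene Alb was in the same libraries at 551 and 155 CPM with aripiprazole and 624 and 122 CPM with clozapine, against 0.99 and 1.16 CPM with CMCTween, higher in the library with more Slco1b2 each time. The part of liver RNA in these values was not tested. Brain, eye and aorta, where Slc22a2 or Slc22a8 passed the filter, had no call for them with any of the 15 drugs by edgeR, with 7 of 60 pairs at an unadjusted p below 0.05, and none among the 19 pairs to which DESeq2 gave an adjusted p.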

How the data were processed

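The deposited files are 24 tables of raw read counts, 1 per tissue, made by the authors with bcl2fastq 2.17, TopHat2 2.1.1 (mm10) and HTSeq 0.9.1, per the submitters' processing notes, from QuantSeq 3′ mRNA libraries, per the labels' protocols. The annotation, read filters and counting settings are not given in the sources used here. Tags near the 3′ end do not scale with length, so CPM was not divided by gene length. All tests compare levels within a gene. CPM values were computed here from the deposited counts and column sums. No 2 libraries of a group agreed within sampling noise (442 pairs, lowest chi-square per degree of freedom 1.11).

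Each tissue was fitted with all its libraries in 1 model of 18 groups in R 4.3.3 with edgeR 4.0.16 (filterByExpr with a minimum count of 10, TMM, robust quasi-likelihood F test; Benjamini-Hochberg, 0.05). The standard error is the log2 fold change divided by the square root of F. Untreated tissues were fitted jointly, and kidney with liver jointly for the difference of responses. Alternatives were other scalings, no filter, DESeq2 1.42.0, a replicate block, other references, fits of 1 set, and each library left out; those for single libraries outside kidney and liver, and ileum and jejunum without CMCTween replicate 4, were added after seeing the data. Scaling by column sums moved the median of all genes by over 0.1 (log2) for APAP in ileum (−0.11), jejunum (−0.14), parotid gland (−0.36) and skeletal muscle (0.18), for asenapine in parotid gland (0.20) and for cisplatin in thymus (0.12). The script was tested on simulated counts.

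Gene positions are from GENCODE M21 (mm10) and promoters from RefSeq (GRCm38.p6). The members, gene lists and sets were chosen with earlier results of these data known. All 9 members are named; of each list, up to 6 called genes with the largest change and up to 2 others may be named, and for likeness the 3 highest r, leaving out Gm-number and Rik symbols. Intervals and floors cover counting error only. The comparisons of other tissues that hold no member past the filter were not analysed here. Some results on transporter genes, their regulators and promoter motifs are not reported here.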

Additional observations from a re-analysis of the deposited data

Results flagged for a closer look

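The response of Slc47a1 to cisplatin differed between kidney and liver by −1.60 ± 0.24 (kidney minus liver, log2, SE), by a test of the difference itself in a joint fit of both tissues (edgeR's quasi-likelihood test, adjusted p = 7.10e-07). The gene had 232.3 and 371.8 CPM in cisplatin kidneys, against 726.0 and 802.2 CPM in CMCTween kidneys, and 80.5 and 113.4 CPM in cisplatin livers, against 86.8 and 96.98 CPM in CMCTween livers. The difference was called in each of the 8 fits that left out 1 cisplatin or CMCTween library.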

How the results depend on the processing

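The count of 6 members lower in cisplatin kidneys was 6 under all 11 alternatives, the counts higher in untreated kidney (7) and liver (4) did not move, and the kidney minus liver difference stayed at 1 call. Kidney calls, 11 in the main result, ranged from 9 to 17 when 1 library was left out, with 17 without cisplatin replicate 1. Liver calls, 3 in the main result, were 1 against sucrose only and 5 with the libraries of the set only, and ranged from 1 to 3 when 1 library was left out. For APAP in liver, 2 members in the main result were 0 against sucrose only, 4 with the libraries of the set only and 1 with DESeq2, and ranged from 0 to 2 when 1 library was left out. Calls in the other 22 tissues were 18 in the main result and 38 with no filter on low counts; 4 of the 38 were pairs that had not passed the filter, 15 were calls of the main result, and 17 were in jejunum, against 2 there in the main result. The share of all genes called under each alternative is not given here, so no move particular to the members is read from these counts. The cause of these moves was not tested. Of 415 alternative values of the 32 called pairs, 337 kept their direction and call, 78 lost the call and 0 changed sign; 12 pairs kept their call throughout.

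With the replicate block the counts were 11 in kidney, 3 in liver and 18 in the other tissues. Replicate numbers are not known to mark shared animals, and same-numbered libraries deviated together little (median r 0.029 in kidney, with 2 of 17 group pairs over 0.1, and 0.012 in liver, with 4 of 17), so the numbers were not taken to pair samples. The replicate block moved 3 calls past the threshold, Abcb1a with APAP (adjusted p = 0.0506), Abcc2 with cisplatin (0.0967) and Abcc2 with risedronate (0.0701), all in ileum, and brought 3 others below it, all Slco1b2: aripiprazole (0.0495) and clozapine (0.0214) in adrenal gland and cisplatin in aorta (0.0193). Depth limits low members: 1 count in a library of median depth is 1.14 CPM, so only large changes of genes at a few CPM were detectable.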
